A study of Mus musculus with 5 samples.

Results

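Droplets that held more than 25% but at most 60% mitochondrial transcripts, which a filter on mitochondrial share leaves out of a single-cell atlas, were described in ischemic and sham mouse kidney. They were chosen by measured values: at least 2000 unique molecular identifiers (UMIs, which count single transcripts), at least 200 genes, and a share of UMIs on the 13 mitochondrially encoded genes (mt- genes) inside those limits. The rule found 7292 members among 10474594 droplet barcodes, and 43155 barcodes with at least 2000 UMIs, at least 200 genes and at most 25% served as the comparison. The labels list 5 kidney samples, each drawn from 3 mice: a sham operation, and unilateral ischemia-reperfusion (UIR), a model of acute kidney injury (AKI), on days 1, 3, 14 and 28. In UIR the left renal pedicle was clamped for 35 min while the right kidney was left intact, and the study's methods give male C57BL/6J mice aged 6 to 8 weeks. The numbers 1 to 5 at the end of the barcodes keep 5 libraries apart, and no label ties a number to the sham or to a day. All values are therefore given by library number, nothing is given by time point, and the whole matrix counts as 1 pooled sample without a test.

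The mitochondrial genome encodes 13 subunits of the respiratory chain, and a droplet's share of such transcripts rises either with many mitochondria or with loss of cytoplasmic mRNA through a leaky membrane. Filters on this share are meant to remove damaged cells. In kidney they meet a particular difficulty, because the proximal tubule, the thick ascending limb and the distal convoluted tubule reabsorb salt with pumps that draw on dense mitochondria, whereas immune cells and fibroblasts hold few. For this reason the nuclear transcripts of the members were examined after the mt- genes had been taken out and the rest scaled to CPM, the usual count per fixed total of nuclear UMIs.

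The 5 libraries held between 82426945 and 139382799 UMIs. Barcodes with at most 100 UMIs, taken as empty droplets, carried free RNA in which 50.8%, 31.7%, 26.6%, 28.9% and 35.8% of UMIs were mitochondrial in libraries 1 to 5, so free RNA alone lay above the cut in each library. Among the 50168 barcode sequences of members and comparison, 277 occurred in more than 1 library, and 83 members carried such a sequence. The labels give the cell type as goblet cell, but 7 goblet genes, among them Muc2 and Tff3, summed to 0.815 CPM in members and 0.627 CPM in the comparison, and proximal tubule genes were abundant in both. Intervals below are exact 95% intervals that cover counting error only. Doublets were kept.

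Members made up 14.5% (14.1 to 14.8%) of members and comparison together, and the libraries differed in this share. It was 20% in library 1 (1706 members), 10.6% in library 2 (918), 8.46% in library 3 (1297), 12.7% in library 4 (1028) and 23.9% in library 5 (2343). Libraries 1 and 5 were high and library 3 was low, and the 5 library intervals did not overlap. Library 3 had the most UMIs in all but the lowest median UMIs per barcode, 3788 in members and 5544 in the comparison. A further 1684 barcodes lay over 60% and 513 barcodes with at least 2000 UMIs had fewer than 200 genes, and neither group was counted as a member. The distribution fell smoothly through the cut without a second peak, from 4780 barcodes at 20 to 25% to 2835 at 25 to 30%, and from 345 at 55 to 60% to 553 in the wider range of 60 to 70%.

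**Figure D1:**
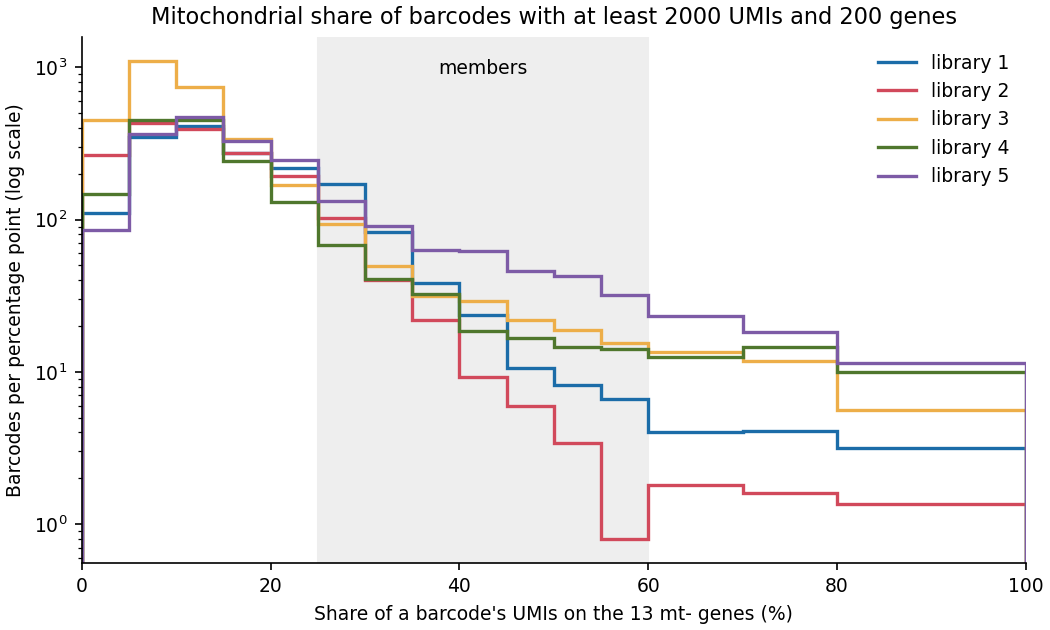
Barcodes with at least 2000 UMIs and 200 genes per percentage point of mitochondrial share (vertical axis, log scale) against that share in percent, 1 line per library. Grey marks the members, of which library 5 held 2343 and library 2 held 918, and no line has a separate peak at the cut.

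Barcodes just inside and just outside the limits differed little in Slc34a1 and more in distal convoluted tubule genes. Slc34a1, the sodium-phosphate cotransporter of the proximal tubule brush border, stood at 4313 CPM between 20 and 25% and at 4569.9 CPM between 25 and 30%. A list of 5 distal convoluted tubule genes went from 330.4 to 778 CPM over the same step. At the upper limit the list changed from 961 to 871 CPM and Slc34a1 from 5949 to 6310.1 CPM. At the UMI limit, the 234 barcodes of 1900 to 1999 UMIs had the distal list at 852 CPM and the 257 barcodes of 2000 to 2099 UMIs had it at 319 CPM, with Slc34a1 at 4446 and 4409 CPM.

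The mix of mt- genes was nearly the same on both sides of the cut, so the members differed in the amount and hardly in the kind of mitochondrial transcript. The mt-Co1 gene (chromosome M, 5328 to 6872, plus strand), which encodes the catalytic subunit of cytochrome c oxidase, gave 9.64% of mt- UMIs in members and 9.82% in the comparison. Its median count was 143 UMIs per barcode in members and 59 in the comparison. The mt-Nd1 gene (chromosome M, 2751 to 3707, plus strand), a complex I subunit, gave 5.45% and 5.85%, with medians of 83 and 37 UMIs. In empty droplets mt-Co1 held 7.80% and mt-Nd1 4.03% of mt- UMIs, below both groups of barcodes. The leading genes were mt-Atp6 and mt-Co3, with 18.8% and 18.5% of mt- UMIs in members. Since mt- counts defined the members, these values describe the choice and are not a result of it.

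Members had both more mitochondrial and fewer nuclear UMIs than the comparison. The median was 1536.5 mt- UMIs (quartiles 989 and 2715) against 630.0 (367 and 1063), and 2894 nuclear UMIs (1865 and 4891) against 5321 (3499 and 7710). By library the median of mt- UMIs in members ran from 1244.5 in library 1 to 1959 in library 5, and that of the comparison from 507 in library 3 to 767 in library 1. The median of nuclear UMIs ran from 2379 to 3402.5 in members and from 5019.5 to 5812 in the comparison. No library median of the members overlapped one of the comparison on either scale, a separation that the rule itself favours since it uses the ratio of the 2 counts. Members also had fewer genes, a median of 1324 against 2068, but most of this gap followed the depth. After every barcode was thinned to 800 nuclear UMIs, the fewest a member can have, the medians were 516 and 517 genes. The sign differed by library, with 507 against 528 and 512 against 520 genes in libraries 1 and 2. In libraries 3 to 5 the medians were 521 against 515, 527 against 516 and 518 against 511. No barcode was left out by the thinning.

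The same shift on both axes was seen within tubule classes, which are defined below from clusters, but in unequal parts. In the distal convoluted tubule-like class of library 5 the median of mt- UMIs was 2035 in members against 715.5, while that of nuclear UMIs was 3046 against 4493.5. In the proximal tubule-like class of library 3 it was 2191.5 against 539 mt- UMIs and 3099 against 5084 nuclear UMIs. Libraries 1 and 2 showed the smaller mitochondrial and the larger nuclear gap in that class, with 1468 against 943 mt- UMIs and 3096 against 6689 nuclear UMIs in library 1, and 1355 against 821 and 3132 against 6739 in library 2. Whether membrane leakage, mitochondrial content or free RNA set these counts was not tested.

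**Figure D2:**
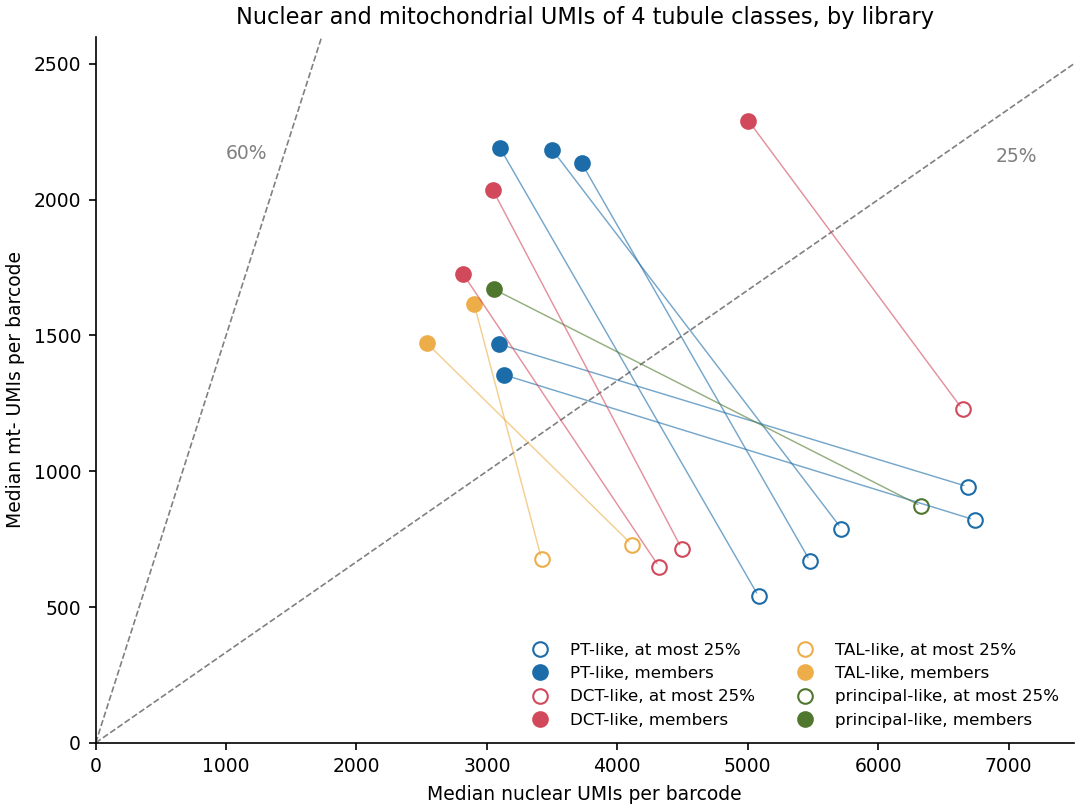
Median mt- UMIs (vertical axis) against median nuclear UMIs (horizontal axis) per barcode in 4 tubule classes, 1 pair of points per library with at least 20 barcodes on each side of the cut; open circles are comparison barcodes, filled circles members, and dashed lines mark 25% and 60%. Every filled circle lies above and to the left of its open partner, and the pairs of libraries 1 and 2 of the proximal tubule-like class (PT-like) have the flattest lines.

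Nuclear genes were compared where a gene reached 20 CPM on 1 side, which left 6153. A gene was called where its summed CPM differed at least 2-fold and the ratio had the same sign in all 5 libraries. By this rule 53 genes were called higher in members (0.861% of those compared) and 168 lower (2.73%), and the median log2 ratio was −0.01. The sign alone was the same in all 5 libraries for 1237 genes that were higher (20.1%) and 1413 that were lower (23.0%). Without library 5 the count of higher genes was 35, and without the distal convoluted tubule-like and thick ascending limb-like clusters it was 25. Members over 40% had 245 genes called higher and 148 lower, and against barcodes of at most 10% the counts were 148 higher and 346 lower. The shares of genes compared are not given for these counts. Library 2 gave only 46 of the 711 barcodes at 40 to 45% and 4 of the 345 at 55 to 60%, so the mix of libraries differed as well.

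The distal convoluted tubule list stood furthest above the comparison. Its 5 genes summed to 907 CPM in members against 119.8 CPM (log2 ratio 2.92, 2.90 to 2.94), and to 160.5 CPM in empty droplets. By library the members held 769, 745, 673, 39.9 and 1578 CPM and the comparison 81.8, 91.7, 127 (library 3), 23.5 and 277 CPM. Empty droplets held 153, 149, 105, 84.7 and 373 CPM, so in library 4 they lay above both members and comparison. Library 4 was low on both sides and had only 7 barcodes of the matching class, and its log2 ratio of 0.76 was the smallest against 2.40 to 3.23 in the others.

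Slc12a3 (ENSMUSG00000031766, chromosome 8, 94329201 to 94366214, plus strand), the thiazide-sensitive sodium-chloride cotransporter that defines this segment, stood at 442, 467, 538, 34.9 and 810.4 CPM in members of libraries 1 to 5. In the comparison it stood at 52.4, 43.2, 92.2, 15.5 and 157 CPM, so members were higher in 5 of 5 libraries (log2 ratio 2.82, 2.79 to 2.85). Parvalbumin (Pvalb, ENSMUSG00000005716, chromosome 15, 78191114 to 78206400, minus strand), a calcium buffer of the early part of the segment, had a log2 ratio above that of the cotransporter (3.49, 3.38 to 3.61). It was at 29.1, 17.4, 5.05, 2.37 and 105 CPM in members against 1.54, 1.20, 0.444, 0.0679 and 20.8 CPM. Both genes had their highest level in library 5 and their lowest in library 4 on either side of the cut.

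Of the other 3 genes of the list, Calb1 and Slc8a1 were higher in the sum but turned in library 4, and Trpm6 was higher in all 5 libraries, by 0.31 in library 4. Calb1, the calcium-binding calbindin, was at 237 against 26.0 CPM, with a log2 ratio between 1.69 and 3.96 in libraries 1, 2, 3 and 5 and −1.76 in library 4. Slc8a1, the sodium-calcium exchanger of the basolateral side, was at 90.0 against 12.8 CPM and at −2.22 in library 4. In library 4 members Calb1 and Slc8a1 stood at 1.29 and 0.647 CPM, so few UMIs carry these signs. Trpm6, the apical magnesium channel, was at 15.1 against 3.30 CPM, under the 20 CPM limit set for the gene comparison. Among the 10 highest called genes of at least 50 CPM were Abca13 (3.25), an ABC transporter, Sfrp1 (2.79), a secreted Wnt inhibitor, Slc16a7 (2.77), a monocarboxylate transporter, and Pgam2 (2.55), a glycolytic mutase, all 4 of which also led the distal convoluted tubule-like cluster described below. Klhl3 (1.45) and Wnk1 (1.49), both regulators of the cotransporter, were also called higher, and they were picked out after their values were seen.

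The thick ascending limb list was 1396 CPM in members against 395 CPM (log2 ratio 1.82, 1.80 to 1.84), with library ratios of 2.12, 1.37, 0.76, 1.07 and 2.67. All 4 of its genes that could be compared were called higher. Slc12a1 (ENSMUSG00000027202, chromosome 2, 125152505 to 125230002, plus strand), the furosemide-sensitive cotransporter, was at 246, 117, 22.7, 31.9 and 282 CPM in members. In the comparison it was at 75.1, 51.1, 22.6, 14.6 and 44.3 CPM, so the log2 ratio was 0.01 in library 3 and 1.13 or more in the others. Umod (ENSMUSG00000030963, chromosome 7, 119462711 to 119479282, minus strand), the most abundant protein of normal urine, was at 878 against 301 CPM (1.55). Egf, the growth factor that distal tubules shed into urine, was at 243 against 25.6 CPM (3.25), and Kcnj1, the apical potassium channel ROMK, at 74.9 against 14.4 CPM (2.38). Without the distal convoluted tubule-like and thick ascending limb-like clusters this list turned to −0.37 and the distal convoluted tubule list fell to 1.34.

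The proximal tubule list was higher by a smaller ratio, and 8 of its 11 genes were above 0 in the pooled ratio. The list of 11 genes was at 11796 CPM in members and 8281 CPM in the comparison (log2 ratio 0.51, 0.51 to 0.52), with library ratios of 0.31, 0.60, 0.40, 0.66 and 0.19. Of the 11 genes, 1 was called higher, 0 lower, and the median log2 ratio was 0.48. Slc34a1 (ENSMUSG00000021490, chromosome 13, 55398187 to 55415592, plus strand) was at 5510.4, 6103, 2618, 6064 and 4083 CPM in members against 4497, 3882, 1886, 3964 and 3914 CPM. Members were higher in 5 of 5 libraries, though by only 0.06 in library 5. Lrp2 (ENSMUSG00000027070, chromosome 2, 69424340 to 69586065, minus strand), the endocytic receptor megalin, was at 1003, 1301, 898, 1810.3 and 1562 CPM against 659, 963, 721, 1072 and 1101 CPM (pooled log2 ratio 0.62). Neither reached the 2-fold limit. The organic anion transporter genes Slc22a30 and Slc22a6 went the other way, at −0.24 and −0.11, and Slc22a30 was below 0 in all 5 libraries.

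The difference was larger for genes of the first segment. The S1 list was at 2835 CPM in members and 1556 CPM in the comparison (log2 ratio 0.86), its 5 genes were above 0 in all libraries, and library ratios ran from 0.47 to 1.14. Slc5a2, the glucose transporter SGLT2 of this segment, was called higher at 669 against 224 CPM (1.58), with library ratios between 1.01 and 2.03. The S3 list had a pooled ratio of 0.42 but library ratios of −0.07, −0.27, −0.24, −0.26 and 0.16. Its level was 2027 CPM in members of library 5 and 147 CPM in those of library 3, and library 5 supplied more of the members than of the comparison, so the pooled value differs in sign from 4 of the library values. Metabolic enzymes of the proximal tubule showed 0 called genes of 11 in either direction, with a pooled ratio of 0.38 and −0.12 in library 5.

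Collecting duct and injury genes did not share this pattern. The principal cell list was lower (83.7 against 147 CPM, log2 ratio −0.81, between −1.53 and −0.26 by library), and the water channel gene Aqp2 (9.46 against 27.4 CPM) and Fxyd4, a subunit that tunes the sodium pump (18.0 against 44.6 CPM), were called lower. The intercalated cell list was at 61.3 against 61.1 CPM. The injured epithelial list had a pooled ratio of −0.14 with signs that differed by library: −0.82 and −0.60 in libraries 1 and 2, then 0.75, 0.17 and 1.03 in libraries 3 to 5. Of its 9 genes compared, 0 were above 0 in the pooled ratio, and the median was −0.96. Called lower were 3, namely Vcam1, an adhesion molecule (5.00 against 22.0 CPM), and the keratins Krt8 and Krt18. Havcr1, the kidney injury molecule KIM-1, was at 16.5 against 33.4 CPM and higher only in libraries 3 (log2 ratio 0.30) and 5 (0.23). Spp1, or osteopontin, was at 7496 against 7830.2 CPM, of 8738 and 9611 CPM for the whole list. The list's sum and pooled ratio are thus mostly those of this 1 gene. Library 3 had the highest level of the list on either side of the cut, with 37388 CPM in members and 22187 CPM in the comparison.

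Genes of cells other than tubule cells were low in members. The monocyte/macrophage list was at 79.9 CPM against 866 CPM (log2 ratio −3.44, −3.50 to −3.38) and at 961 CPM in empty droplets. The members' level was thus below that of the free RNA, 4 of 5 genes compared were called lower, and library ratios were −3.43, −4.33, −2.62, −2.97 and −0.43. Lyz2 (ENSMUSG00000069516, chromosome 10, 117277331 to 117282321, minus strand), lysozyme of myeloid cells, was at 36.5, 41.4, 77.1, 72.7 and 0.519 CPM in members against 668, 1051, 463, 628 and 10.4 CPM. C1qa, C1qb and C1qc, the complement chains made by macrophages, had log2 ratios of −3.24, −3.25 and −3.32 and were lower in all libraries. Ctss, a lysosomal protease, Ccl6, a chemokine, and S100a4 were among the 10 lowest called as well, at −3.39, −3.09 and −3.01.

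The fibroblast/pericyte list was at 7.97 against 66.1 CPM (−3.05) and the endothelial list at 9.32 against 57.0 CPM (−2.61), with every library ratio at or below −0.90. Tagln, a smooth muscle actin-binding protein, had the lowest log2 ratio of the genes called (−4.93, −5.29 to −4.60). It had 71 UMIs in members against 20704, and none in members of libraries 4 and 5, where 3 UMIs would make 0.647 and 0.311 CPM. Mgp (−4.09), an inhibitor of calcification, and Vim (−3.65), the intermediate filament vimentin, were also among the 10 lowest called. The neutrophil list (326 against 565 CPM) was lower in 4 of 5 libraries, and library 3 was at 0.38. Of its 3 genes compared, 1 was called lower. This list was also lower within the proximal tubule-like barcodes defined below, at 182 against 434 CPM. In thick ascending limb-like barcodes its gene G0s2 was at 23.2 against 83.7 CPM. The drop of the list is thus not one of neutrophil cells alone. The other lists of minor cell types summed to 14.4 CPM or less in members, against 41.4 CPM or less in the comparison, apart from haemoglobin genes at 8.96 against 113 CPM. The haemoglobin value came mostly from library 2, where the comparison was at 518 CPM, against 50.9 CPM in library 1 and 0.592 CPM or less in libraries 3 to 5.

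**Figure D3:**
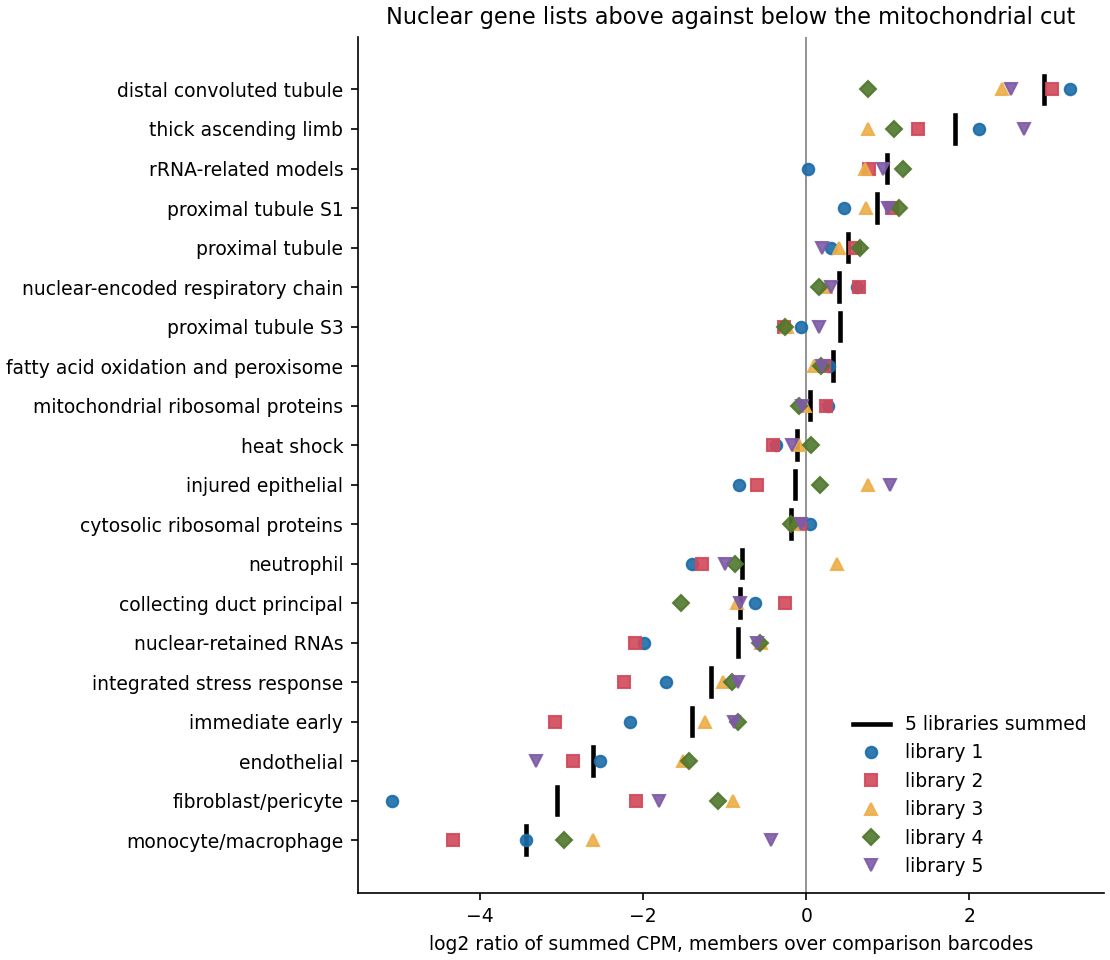
Log2 ratio of the summed CPM of 20 nuclear gene lists in members over comparison barcodes (horizontal axis), with 1 symbol per library and a black bar for the 5 libraries summed. The distal convoluted tubule list lies at 2.92 and the monocyte/macrophage list at −3.44, and libraries 1 and 2 lie apart from the others at the immediate early and nuclear-retained lists.

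The respiratory chain is built from subunits encoded in both genomes, and its nuclear genes were compared next. The nuclear-encoded respiratory chain list was at 75346 CPM in members and 56843 CPM in the comparison (log2 ratio 0.41, 0.40 to 0.41), and its library ratios were 0.62, 0.64, 0.25, 0.15 and 0.31. Of 79 genes compared, 65 were above 0 in all 5 libraries and 0 were below 0 in all 5, beside the 20.1% and 23.0% of all genes, yet 0 were called. Cox7a1 and Cox6c, subunits of complex IV, were at 0.84 and 0.66, Sdha of complex II was at 0.61, and Cox6b2 was lowest at −0.11. The list's log2 ratio of 0.41 is one of shares of nuclear UMIs, whereas the medians of 1536.5 and 630.0 mt- UMIs are counts per barcode. Nuclear UMIs per barcode were fewer in members, with medians of 2894 and 5321. The ratio thus does not say that a member held more of these nuclear-encoded RNAs. Mitochondrial ribosomal proteins (0.04) and genes for mitochondrial transcription and RNA upkeep (0.11) had small pooled ratios and 0 called genes. Genes of fatty acid oxidation and peroxisomes were at 0.33 with 0 of 13 called, and glycolysis genes at 0.10 with 0 of 9. For fatty acid oxidation and peroxisomes the library ratios were 0.28, 0.22, 0.09, 0.19 and 0.20, each below the pooled value.

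Most immediate early genes were called lower in the members, and fewer of the stress genes were. The immediate early list was at 3484 CPM against 9166 CPM (log2 ratio −1.40, −1.40 to −1.39), and 9 of 12 genes were called lower and 0 higher, beside 2.73% of all genes. Library ratios were −2.16, −3.08, −1.25, −0.84 and −0.88. Fos, a subunit of the AP-1 transcription factor, was at 270.0, 202, 683, 778 and 575 CPM in members against 1539, 1759.9, 1962, 1649 and 1140.2 CPM. Jun, its partner, was at 316, 355, 999.5, 1439 and 1339 CPM against 1388, 3479, 2648, 3107 and 3026 CPM. No library of the members overlapped one of the comparison for Fos, whereas Jun in library 4 members lay above library 1 of the comparison. The integrated stress response list was lower as well (425 against 953 CPM, −1.17), with 2 of 5 genes called lower: Gdf15, a stress cytokine, and Ppp1r15a, which restores translation. Of the p53 and apoptosis genes 2 of 5 were called lower, among them the cell cycle inhibitor Cdkn1a (25.8 against 87.4 CPM). Heat shock genes (−0.11, 2 of 9 called lower), mitophagy genes (−0.16, 0 of 7), metallothioneins (0.33, 0 of 2) and cell cycle genes (−0.69, 0 of 1) differed less or rested on few genes.

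The list of RNAs that stay in the nucleus had 0 of 4 genes called, though all 4 were below 0 in every library, with the lowest ratios in libraries 1 and 2. Malat1, a long noncoding RNA of nuclear speckles, was at 8900, 12029, 61048, 51042 and 49584 CPM in members against 35583, 51685, 90266, 76005 and 76143 CPM. Neat1, the scaffold of paraspeckles, was at 920.1 against 1422 CPM. The list as a whole was at −0.84, with −1.99 and −2.10 in libraries 1 and 2 and between −0.61 and −0.56 in the others. The gene model Gm42418, which overlaps ribosomal RNA sequence, was called higher at 12949.8 against 6368 CPM, and empty droplets held 29352 CPM. The list of 3 such models was at 2149, 93978, 10003, 18617 and 15479 CPM in empty droplets of libraries 1 to 5, so library 2 raised the pooled level. Members held 498, 20793.5, 6678, 23354 and 17310 CPM of that list, which is above the empty droplets in libraries 4 and 5. Cytosolic ribosomal protein genes were at −0.19 with 0 of 81 called, and 11 abundant cytosolic and cytoskeletal genes at −0.22, of which Tmsb4x, an actin-binding thymosin (296 against 1649.8 CPM), and Tmsb10 were called lower.

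To see which cells stood behind these sums, both sets of barcodes were clustered in 1 run that did not use the mt- genes. Marker lists gave the clusters their names, which end in -like. Most members were proximal tubule-like: 4227 of 7292 (58.0%), against 55.6% of the comparison. The unnamed clusters held 2004 members (27.5%). Of these, 1227 lay in 1 cluster that was closest to proximal tubule but led by haemoglobin genes. The haemoglobin list had 253 UMIs in all members together, against 30479 in the comparison, so at most 253 of the 1227 could carry such RNA. That cluster held 5025 barcodes, 24.4% of them above the cut, and is not part of the proximal tubule-like class. A further 438 and 143 members lay in a pair of clusters close to proximal tubule with Havcr1 among the leading genes. The distal convoluted tubule-like class held 370 members (5.07%, against 0.563% of the comparison), the thick ascending limb-like class 215, the collecting duct principal-like class 208 and the injured epithelial-like class 140. Immune and fibroblast classes together were few, with 46 neutrophil-like, 32 T/NK-like, 29 monocyte/macrophage-like, 11 B-like, 6 dendritic-like and 4 fibroblast/pericyte-like members.

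The share of a class that lay above the cut ranged from 60.4% to 0.995%. It was 60.4% (56.4 to 64.3%) of 613 distal convoluted tubule-like barcodes and 50.4% (45.5 to 55.2%) of 427 thick ascending limb-like barcodes. Over the libraries summed, a 25% filter would thus leave out more than it keeps of the first cluster. Of the distal convoluted tubule-like barcodes, libraries 1, 2 and 5 held 90, 68 and 439, of which 73.3%, 48.5% and 59.9% were above the cut. Libraries 3 and 4 held only 9 and 7. The collecting duct principal-like cluster, with 612 of its 819 barcodes in library 3, carried Slc12a3 there as well, as given below. Of that cluster 25.4% lay above the cut, so 60.4% describes only the cluster that carries the distal convoluted tubule name. Thick ascending limb-like barcodes were above it in 52.1%, 23.9% and 58.8% of cases in libraries 1, 2 and 5, so library 2 was lower than both others. An unnamed cluster with thick ascending limb genes such as Umod and Cldn16 among its leading genes was closest to the injured epithelial class. It held 1467 barcodes, 1280 of them in library 3, of which 8.32% lay above the cut, so 50.4% describes only the cluster that carries the name. The proximal tubule-like share was 14.99%, between 7.72% in library 3 and 21.9% in library 5. It was 11.1% of neutrophil-like, 5.58% of injured epithelial-like, 4.41% of T/NK-like, 1.92% (1.29 to 2.75%) of monocyte/macrophage-like and 0.995% (0.272 to 2.53%) of fibroblast/pericyte-like barcodes. When each barcode was instead given the class of its leading marker list, the first 2 shares were 36.3% and 26.6%.

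**Figure D4:**
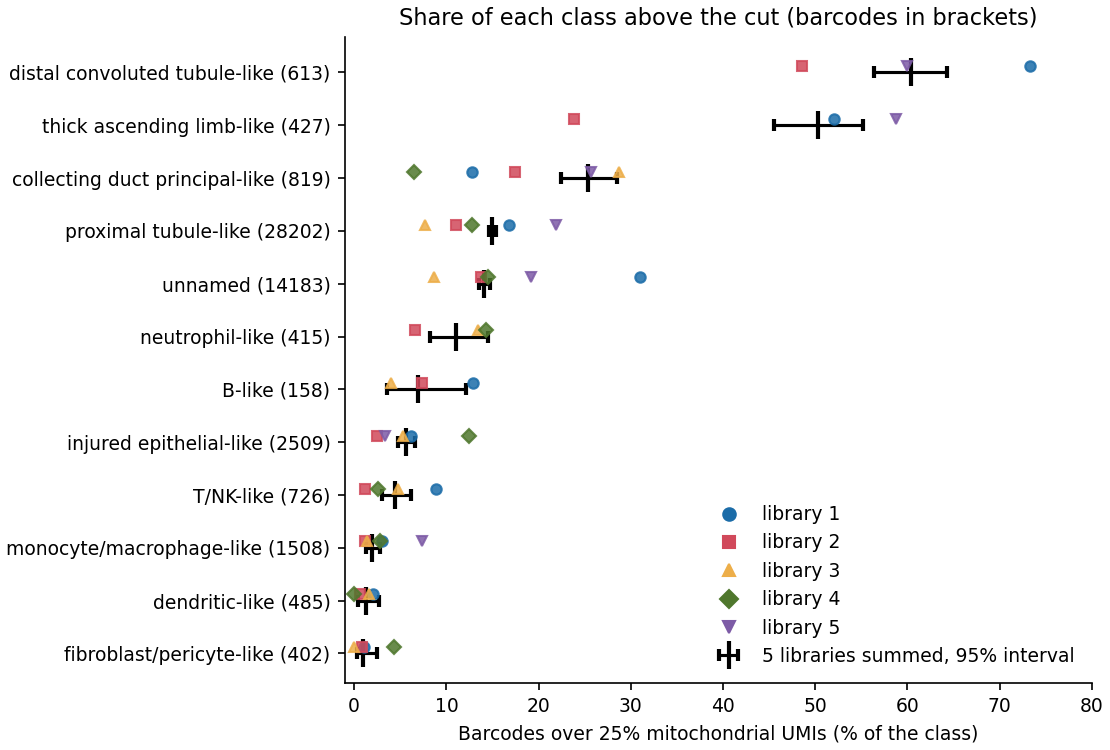
Percent of the barcodes of each class that had over 25% mitochondrial UMIs (horizontal axis): black bars give the 5 libraries summed with exact 95% intervals, and symbols the libraries with at least 20 barcodes of the class. The distal convoluted tubule-like class lies at 60.4%, the proximal tubule-like class at 14.99% and the monocyte/macrophage-like class at 1.92%.

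Within the proximal tubule-like class, members and comparison lay mostly in different clusters, so the values below compare cells that are not of one subtype. Of its members, 25.2% were in cluster 9 and 17.7% in cluster 5, both led by genes such as Slc34a3, Slc5a2 and Spp2. A further 12.5% were in cluster 15, 12.3% in cluster 10 and 9.04% in cluster 13. Clusters 0, 2 and 4 held 22.0%, 18.6% and 13.9% of the comparison and 4.14%, 6.98% and 4.66% of the members. Over 6006 genes compared, 51 were called higher (0.849%) and 95 lower (1.58%), counts that were 33 and 180 without library 5. One cluster of this class, number 14, was led by cell cycle genes and another, number 27, by interferon-induced genes.

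Apob, the apolipoprotein that the tubule secretes, was at 73.8, 207, 381, 195 and 354 CPM in members against 29.6, 66.2, 178, 41.4 and 63.3 CPM (pooled log2 ratio 1.89). Slc5a2 was at 466, 1047, 971, 1193 and 866 CPM against 196, 273, 477, 346 and 182 CPM (1.67). Members exceeded the comparison in 5 of 5 libraries for both, and for Slc5a2 only library 1 of the members (466 CPM) fell below a library of the comparison (477 CPM in library 3). The vitamin D-binding protein Gc (1.87), the mitochondrial acetyl-CoA synthetase Acss1 (1.86), apolipoprotein E (Apoe, 1.77), the phosphate transporter Slc34a3 (1.57), the secreted phosphoprotein Spp2 (1.42) and Igfbp7 (1.40) were among the 10 highest. The S1 list was at 0.92 and the S3 list at 0.27, and the S3 list had a sign below 0 in 4 of 5 libraries.

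Fos was at 290, 155, 715, 844 and 468 CPM in members against 1261, 1788, 2386, 1702 and 1097 CPM (pooled log2 ratio −1.71). Dusp1, a phosphatase of MAP kinases (−1.58), Klf6, a zinc-finger factor (−1.64), Hbegf, a growth factor (−1.52), and F3, tissue factor (−1.75), were called lower with them. Of the immediate early list 6 of 12 genes were called lower and 0 higher, and its ratio was −1.30, with −1.81, −3.37, −1.43, −0.78 and −0.89 by library. Nuclear respiratory chain genes were at 0.29 (0 of 79 called), cytosolic ribosomal protein genes at 0.01 and the nuclear-retained list at −0.82. The ribosomal protein list was at 0.35, 0.25, −0.06, −0.11 and −0.07 in libraries 1 to 5, so its signs differed. Slc34a1 and Lrp2 were at 0.33 and 0.60 and were not called.

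Distal convoluted tubule-like members were compared with the comparison in libraries 1, 2 and 5, over 6672 genes. Of these, 38 were called higher (0.57%) and 178 lower (2.67%). The genes highest in members, named here after their values were seen, are known from the later part of the segment. They were S100g, the calcium carrier calbindin-D9k (10307 against 2296 CPM, log2 ratio 2.17), Slc8a1 (1336 against 341 CPM, 1.97) and Klk1, tissue kallikrein (12301 against 3592 CPM, 1.78), a gene with close paralogs so that its count is uncertain. Slc12a3 itself was at 8459.5 against 6973 CPM (0.28) and Pvalb at 873 against 706 CPM (0.31), so neither was called. The immediate early list was at 3969 against 14599 CPM (−1.88), and 11 of its 12 genes were called lower. Nuclear-retained RNAs were at −1.05, with Malat1 called lower, and the respiratory chain list was at 0.25. Lists of other segments moved as well: the principal cell list was at 109 against 46.7 CPM (1.22, both genes compared called higher), the thick ascending limb list at 0.70 and the proximal tubule list at −0.47. The proximal tubule list was at 0.51, −2.56 and −0.24 in libraries 1, 2 and 5, so its sign differed by library.

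Thick ascending limb-like barcodes were compared in libraries 1 and 5, with 604176 nuclear UMIs in members. Over 6870 genes, 192 were called higher (2.79%) and 369 lower (5.37%), and with only 2 libraries the demand on signs is weak. Slc12a1 was at 6579 against 4601 CPM (0.52) and Umod at 21634 against 15530.4 CPM (0.48). The whole marker list of the class was at 0.49 with 0 of 7 genes called. The immediate early list was at −1.15 with 6 of 12 genes lower.

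Collecting duct principal-like barcodes had enough members in library 3 alone, so there the call is by fold only: 111 of 6736 genes were higher (1.65%) and 180 lower (2.67%). Members of this cluster were poor in the genes that name it. The principal cell list was at 504 CPM against 3004 CPM (−2.58), with Aqp2 at 112 against 994 CPM, Aqp3 at 15.8 against 237 CPM and Fxyd4 at 63.2 against 966 CPM. The distal convoluted tubule list was at 4238 against 2319 CPM (0.87), with Slc12a3 at 3440.3 against 1817 CPM, and the thick ascending limb list at 2684 against 1477 CPM (0.86). Members and comparison of this cluster thus differed in segment markers, and the 25.4% of the cluster above the cut is not a share of principal cells. The distal convoluted tubule-like class held only 4 members of library 3, whose members had Slc12a3 at 538 CPM in all.

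Across the 24 clusters with at least 20 barcodes on each side of the cut, some differences recurred and others did not. The immediate early list was lower in members of 21 clusters, with a median log2 ratio of −0.64 and a range from −1.91 to 0.46, and the integrated stress response list was lower in 20. Cytosolic ribosomal protein genes were lower in 22 clusters, by a median of −0.12. The S1 list was higher in 22 clusters and the thick ascending limb list in 22, immune clusters among them. In neutrophil-like members the thick ascending limb list was at 3.10 and the distal convoluted tubule list at 2.75, although neutrophils are not known to make these RNAs. The respiratory chain list was higher in 18 clusters (median 0.11) and nuclear-retained RNAs were lower in 15, so the latter had no common direction. The respiratory chain list was slightly below 0 in 6 clusters, several of them with many members. It was at −0.05 in cluster 1 (1227 members), −0.02 in cluster 9 (1065), −0.15 in cluster 15 (530), −0.08 in cluster 10 (520) and −0.21 in cluster 13 (382). In cluster 5 (750) it was at 0.19. The pooled ratio of 0.41 was thus not found within these clusters. The immediate early list was near 0 or above it in some clusters that held many members: −0.06 in cluster 1 (1227 members), 0.46 in cluster 15 (530), 0.16 in cluster 10 (520), 0.26 in cluster 7 (438) and −0.06 in cluster 13 (382). Other clusters with many members were lower, at −0.50 in cluster 9 (1065), −1.46 in cluster 5 (750) and −1.91 in cluster 19 (370). The pooled ratio of −1.40 was thus not found within clusters 1, 7, 10, 13 and 15.

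Along the whole range of mitochondrial share the lists changed at different points. The monocyte/macrophage list dropped from 5514 CPM at 0 to 5% to 428 CPM at 5 to 10%, far below the cut. The distal convoluted tubule list was lowest at 5 to 10% (80.5 CPM), reached 330.4 CPM at 20 to 25%, and stayed between 778 and 1154 CPM from 25 to 60%. Immediate early genes fell from 11278 CPM at 5 to 10% to 3112 CPM at 25 to 30% and lay between 3112 and 4223 CPM up to 60%. Proximal tubule genes climbed from 3327 CPM at 0 to 5% to 15371 CPM at 55 to 60%, and the respiratory chain list peaked at 78539 CPM at 25 to 30%. Nuclear-retained RNAs had their minimum, 28994 CPM, at 25 to 30% and then rose to 77432 CPM at 55 to 60%. Libraries 1 and 2, whose members were low in Malat1, gave 853 and 512 of the 2835 barcodes at 25 to 30% but 33 and 4 of the 345 at 55 to 60%, and their part in that rise was not tested.

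**Figure D5:**
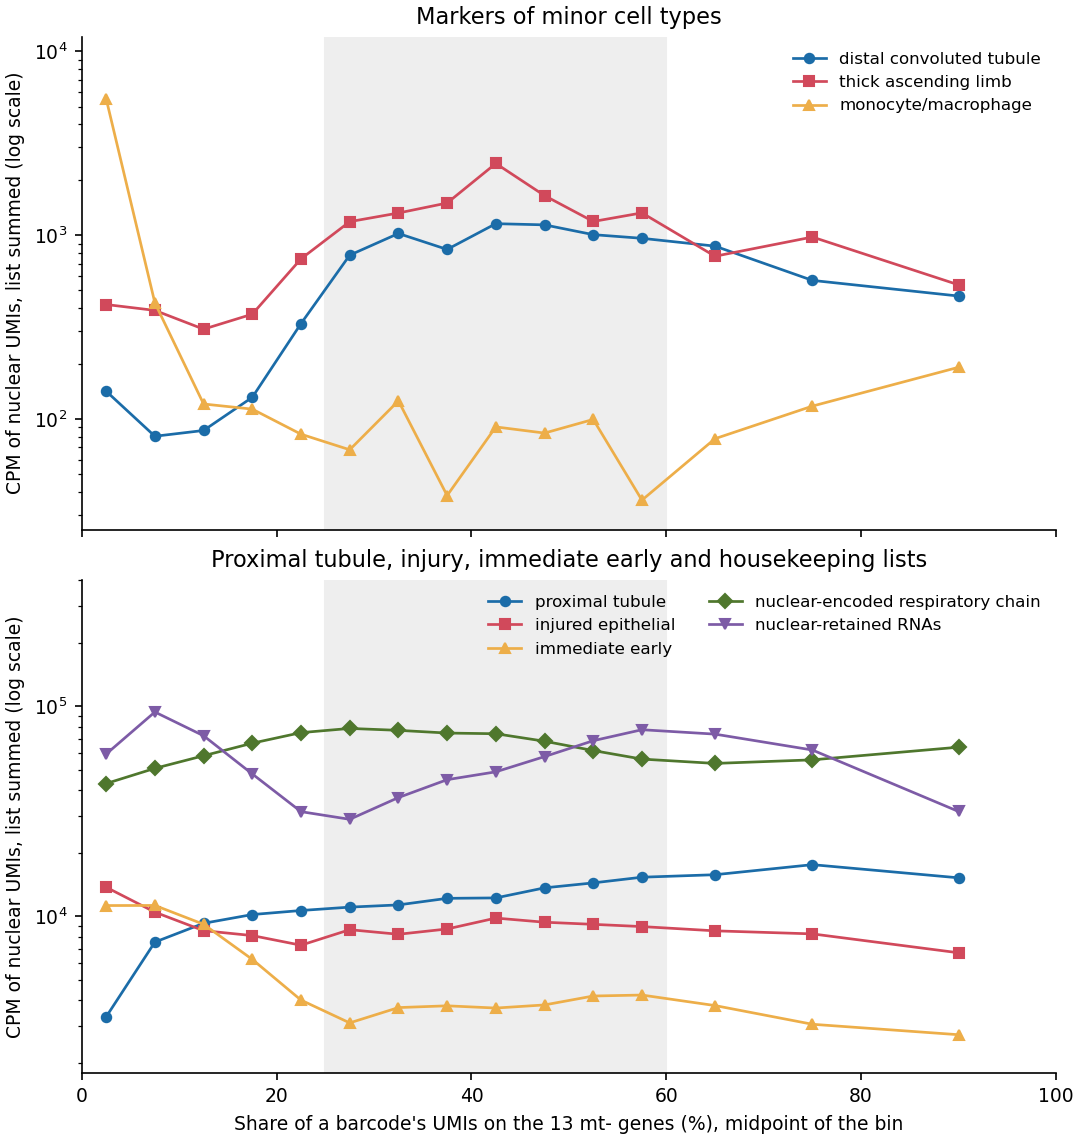
Summed CPM of 8 nuclear gene lists (vertical axes, log scale) against the mitochondrial share of the barcodes in percent, over 15 bins with the 5 libraries summed and the members in grey. The distal convoluted tubule list is at 330.4 CPM just below the cut and 778 CPM just above it, while the monocyte/macrophage list has already dropped to 82.6 CPM at 20 to 25%.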

How the data were processed

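Single-cell suspensions of the 5 kidney samples were captured with 10x Chromium 3′ v3.1 chemistry. The authors aligned reads to mm10 (Ensembl annotation, per the study's methods) with Cell Ranger, version 6.0 in the submitters' processing notes and 6.0.1 in the file header, and deposited 1 matrix of raw UMI counts for 32285 genes, merged over 5 libraries, before cells were called or filtered. The study's methods count 15 matrices, and the matrix used here has 5 libraries. Columns of other samples numbered 0.

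The deposited counts were used as they are. The 13 mt- genes were set apart and the other 32272 genes scaled to CPM over UMIs summed per group and library. Where 1 side had no UMI, 0.5 was added to both. Positions are from GENCODE vM21 (GRCm38). Members, marker lists and gene lists were chosen with earlier results of these data known. Genes named are the 4 markers of the rule, genes of the 35 lists and the 10 highest and 10 lowest called genes of at least 50 CPM over all members and within the proximal tubule-like class; any other is marked. Clustering used 2000 variable genes, 30 components, 20 neighbours and Leiden at resolution 1 (scanpy 1.11.5, leidenalg 0.10.2, Python 3.11.15). A cluster took the class with the highest score (the mean over its markers of the CPM as a share of the highest cluster) if that score was at least 0.3 and at least 3 markers were detected in at least 10% of barcodes. It stayed unnamed if a second class scored at least 0.5, if markers of another class led it, or if uroplakin genes led it; the 0.3 limit and the uroplakin rule were set after clusters had been seen. No doublet caller was run. No batch correction was made. Classes were compared within libraries that had at least 20 barcodes on each side.

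No test was run, since members were chosen on a measured value and no library is tied to a sample. Shares have Clopper-Pearson and ratios exact conditional binomial 95% intervals (scipy 1.17.1), which treat UMIs as independent and leave out differences between cells and mice. The ratio and the call rule were tested on simulated data. Alternatives covered the UMI, mitochondrial and expression limits, weighting, centring, pooling, resolution, naming, doublets and leaving out each library.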

Additional observations from a re-analysis of the deposited data

Results flagged for a closer look

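Barcodes over 60% mitochondrial UMIs, which were on neither side of the comparison of members, carried transcripts of the distal convoluted tubule. With the libraries summed, Slc12a3 stood at 411 CPM (95% interval 382 to 441, from 770 UMIs) in these 1684 barcodes. This was above the 1.601 CPM that 3 UMIs would make and above the 77.9 CPM of empty droplets, also summed. It was at 607, 1882, 217, 5.43 and 636 CPM in libraries 1 to 5, which held 144, 61, 365, 471 and 643 of these barcodes. Members were at 519 CPM and the comparison at 73.6 CPM. In library 4 the barcodes over 60% lay below both the members (34.9 CPM) and the comparison (15.5 CPM), and in library 3 they lay between 538 and 92.2 CPM, nearer to the comparison.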

How the results depend on the processing

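Across 14 results and 142 alternative values, 124 kept their direction and moved by less than the spread between libraries, or by at most 1.5 times for counts, among them all those for barcodes of at most 30000 UMIs and, for the gene lists, all those that left out a library. Against barcodes of at most 10%, the proximal tubule list was at 0.89, the respiratory chain list at 0.63, and 148 genes were called higher and 346 lower. Members over 40% were 4.42% of barcodes and had 245 genes called higher and 148 lower, with another mix of libraries. For these counts, too, the shares of genes compared are not given. At least 1 CPM in 1 group gave 136 higher and 948 lower, and at least 100 CPM gave 22 and 64. The number of genes compared changes with this limit, and the shares called are not given. Leaving out 1 library gave 35 to 73 genes called higher and, within the proximal tubule-like class, 33 to 66 higher and 67 to 180 lower, and the values 35, 33 and 180 are those without library 5. When classes came from each barcode's leading marker list, 36.3% of distal convoluted tubule-like and 26.6% of thick ascending limb-like barcodes lay above the cut; the cause was not tested. An alternative added after seeing the data left out those 2 clusters: the distal convoluted tubule list was then at 1.34, the thick ascending limb list reversed to −0.37, and 25 genes were called higher. Conditions could not be compared, paired or not, because no label ties a library to a sample. Members and comparison were set against each other within each library, and the mean of the 5 library ratios kept the direction of the 6 lists. Classes with few barcodes in a library could not be compared there.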

Other observations

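Empty droplets of libraries 3 to 5 held more collagen transcripts than members or comparison barcodes did. The fibroblast/pericyte list summed to 169, 168, 4298, 14053 and 4404 CPM in the empty droplets of libraries 1 to 5, led by Col1a2 (1313 CPM over all libraries), Col3a1 (1034 CPM) and Col1a1 (903 CPM), the chains of fibrillar collagen. In members the list stood at 6.20, 24.0, 10.8, 7.98 and 1.45 CPM, and in the comparison at 210.3, 102, 20.1, 16.9 and 5.07 CPM. In library 1 the comparison thus lay above the empty droplets, and in the others below them. Podocyte genes were at 97.4 CPM in empty droplets, 17.9 CPM in the comparison and 4.61 CPM in members, but library 2 made the first value with 331 CPM. The empty droplets of the other libraries were at 12.9 to 24.3 CPM, and in library 1 the comparison (26.7 CPM) lay above them (20.5 CPM). For both lists no cause was tested.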
